A study of Mus with 96 samples.

Results

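The cytosolic ribosomal protein genes were followed in mouse liver across a hepatocyte clock deletion, a steatohepatitis diet and the time of day. Members were chosen by name and total count, with earlier results of these data known. The name was Rpl or Rps, a number and at most 1 letter, or Rplp0, Rplp1, Rplp2 or Rpsa. Counts had to sum to at least 1000 over the 96 livers. Of 55487 genes in the table, 83 matched the name and 79 reached that sum, 47 of the large and 32 of the small ribosomal subunit. The names left out were Rpl10l with 0 counts, Rpl32l with 37, Rpl39l with 239 and Rpl3l with 246. The lowest names kept were Rpl6l with 2252 counts, Rps4l with 12357, Rpl13a with 24047 and Rpl38 with 54638. RefSeq lists Rpl6l as a pseudogene and Rps4l as a transcribed pseudogene, and both count among the 79 by their names.

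Ribosomal proteins assemble with ribosomal RNA in the nucleolus into a small subunit, which reads the mRNA, and a large subunit, which forms the peptide bond. Their mRNAs are among the most abundant of any cell and begin with a terminal oligopyrimidine (TOP) tract, through which mTOR signalling and the RNA-binding protein Larp1 control how much of them is translated. In the liver, synthesis of ribosomes is known to follow feeding and to be timed by the circadian clock, in which BMAL1, encoded by Arntl, is a core activator.

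Livers came from C57BL/6J mice aged 8 to 10 weeks, kept in 12 h of light and 12 h of darkness and collected every 4 h, at Zeitgeber time (ZT, hours after lights on) 2, 6, 10, 14, 18 and 22. All carried 2 floxed Bmal1 alleles. Hep-Bmal1KO mice (AlbCre/+/Bmal1flx/flx) also carried Cre under the albumin promoter, which is active in hepatocytes and leaves the clock of other liver cells in place, and their Hep-Bmal1WT littermates (Alb+/+/Bmal1flx/flx) did not. Each genotype received either normal chow (NC), with protein at 27%, fat at 14% and carbohydrate at 59%, or for 2 weeks a high-fat diet without choline (cdHFD), with fat at 60%, carbohydrate at 31%, protein at 9%, cholesterol at 2% and methionine at 0.17%. The 4 groups held 24 livers each, 4 at every ZT. The sexes were balanced at each, except in Hep-Bmal1WT on cdHFD at ZT14, where replicate 4 was the only female. The 3′ ends of the mRNAs were sequenced from barcoded RNA (BRB-seq), so counts do not depend on transcript length in the usual way, and levels are compared between groups for each gene, not between genes.

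Libraries held 1861740 to 9718620 counts on genes, with a median of 6412080. By clock genes and other genotype-dependent genes outside the members, 7 of the 96 libraries lay nearer the opposite genotype label, 4 on NC and 3 on cdHFD. They were kept, and results that rest on them are also given without them. Because they were picked by genotype-dependent genes, leaving them out favours a larger genotype difference and is no independent check of one. Arntl itself did not separate the labels at every ZT: on NC its mean was 20.2 CPM (counts scaled to a common library size) in Hep-Bmal1WT and 9.83 in Hep-Bmal1KO at ZT2, but 0.748 and 5.77 at ZT10. A 3′ tag need not cover the floxed part of the gene and so does not by itself show its deletion. On the library plate, a column (12 in all) took livers of a single genotype, diet and pair of neighbouring ZTs, such as ZT10 with ZT14, so plate column cannot be told apart from these. The ZT10 livers of all 4 groups stood apart from the other times, as described for the members below, and level comparisons are also given without them.

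The members together took 5.08% of all counts on genes, from 2.99% to 7.37% in single libraries. In Hep-Bmal1WT on NC they took 3.58% ± 0.34 (SD, n = 24; lowest 3.02, median 3.54, highest 4.49), and in Hep-Bmal1KO on NC 4.22% ± 0.40 (2.99, 4.22, 4.93). On cdHFD they took 5.98% ± 0.59 in Hep-Bmal1WT (4.90, 5.96, 7.37) and 6.24% ± 0.54 in Hep-Bmal1KO (4.51, 6.28, 7.24). No NC library of Hep-Bmal1WT reached the lowest cdHFD library of that genotype, while the genotypes overlapped on both diets. A share depends on what the other genes do: the 20 most abundant other genes, of which Alb encodes albumin, took a median of 32.4% of counts in Hep-Bmal1WT on NC, 28.6% in Hep-Bmal1KO on NC, and 26.4% and 25.7% on cdHFD. After TMM scaling, which sets libraries on a common level for the bulk of genes, the summed level of the members had medians of 43674 CPM in Hep-Bmal1WT and 48732 in Hep-Bmal1KO on NC, and 51125 and 51268 on cdHFD. The diet ratio of medians in Hep-Bmal1WT was thus 1.69 by share of counts, 1.55 with the 20 abundant genes left out of the total, and 1.16 by TMM scaling without the members. In Hep-Bmal1KO it was 1.49 by share and 1.05 by that scaling.

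**Figure D1:**
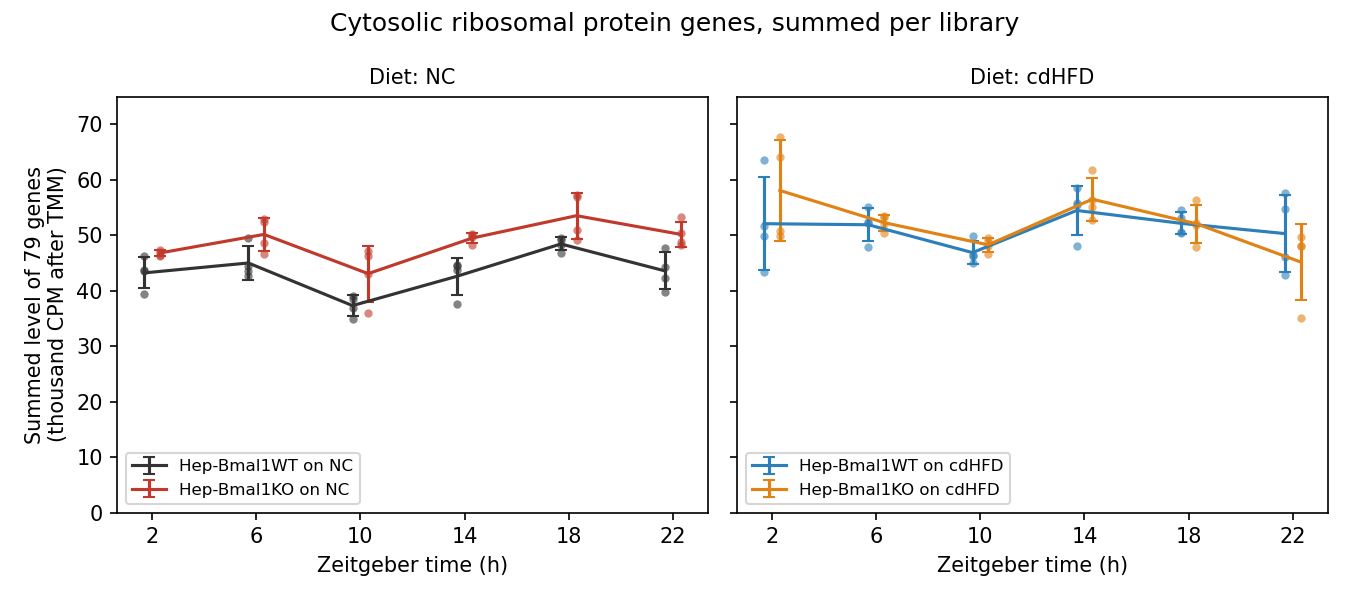
Summed level of the 79 cytosolic ribosomal protein genes (CPM after TMM, axis in units of 1000) against Zeitgeber time (h), NC on the left and cdHFD on the right. Points are single livers, lines join the means of 4 livers and bars are SDs; on NC the Hep-Bmal1KO mean lay above the Hep-Bmal1WT mean at every ZT, and on cdHFD the lines crossed.

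The first comparison asked whether the hepatocyte deletion altered the members on NC. It raised 46 of the 79 genes and lowered none at an adjusted p under 0.05 (edgeR's quasi-likelihood test with ZT as a factor, Benjamini-Hochberg over 15548 genes), where 12.2% of all genes tested passed, 6.98% upward and 5.19% downward. Counting sign alone, 76 members were higher in Hep-Bmal1KO. The median member change was 0.16 on the log2 scale against -0.01 over all genes, and single members ran from -0.10 to 0.36. Both subunits took part, with 29 of 47 large-subunit and 17 of 32 small-subunit genes higher. In bulk liver, a change in the cells present and a change in the RNA of each cell cannot be told apart.

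The members of smallest p were Rpl19, Rplp1, Rps12, Rpl17 and Rpl4. Rplp1 encodes an acidic protein of the stalk through which the large subunit recruits elongation factors, and lies at chromosome 9, 61913283 to 61914510 (GRCm38). Its level ranged from 1305 to 2299 CPM with a median of 1960 in Hep-Bmal1WT, and from 1286 to 2837 with a median of 2337 in Hep-Bmal1KO. The groups overlapped, but their centres differed by a log2 change of 0.30 ± 0.05 (SE), adjusted p = 7.46e-06. Rps12, a small-subunit gene at chromosome 10, 23785183 to 23787383, ran from 556 to 1003 CPM (median 653) in Hep-Bmal1WT and from 560 to 1093 (median 834) in Hep-Bmal1KO. That was a log2 change of 0.35 ± 0.06, adjusted p = 7.48e-06. Rpl17, which sits near the mouth of the peptide exit tunnel, ran from 584 to 1139 CPM (median 871) and from 760 to 1457 (median 1116). The higher centre and the overlapping ranges recurred here, with a log2 change of 0.36 ± 0.06 (adjusted p = 2.18e-05). Rpl4, whose protein lines the exit tunnel, changed by 0.31 ± 0.05 (adjusted p = 2.24e-05), and Rpl19, a large-subunit gene, by 0.27 ± 0.04 (adjusted p = 5.56e-06). The other stalk genes were higher by less, Rplp0 by 0.17 ± 0.06 (adjusted p = 0.0302) and Rplp2 by 0.15 ± 0.04 (adjusted p = 0.0144). Rps6, whose protein is the classical substrate of the S6 kinases, was higher by 0.24 ± 0.06 (adjusted p = 0.0041).

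A few members departed from the rest. Rps27l, a paralogue of Rps27 known as a p53 target, had a log2 change of -0.10 ± 0.04 (adjusted p = 0.158), Rpsa, also known as the laminin receptor, one of -0.00 ± 0.05 (adjusted p = 0.975), and Rps4l, which RefSeq lists as a transcribed pseudogene, one of -0.04 ± 0.14 (adjusted p = 0.899). None of these passed the test.

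At single time points on NC, the mean of Hep-Bmal1KO was above that of Hep-Bmal1WT for 62, 63, 66, 73, 74 and 78 members at ZT2, ZT6, ZT10, ZT14, ZT18 and ZT22. All 4 Hep-Bmal1KO livers lay above all 4 Hep-Bmal1WT livers for 6, 18, 4, 24, 12 and 21 members, where 2.95%, 2.30%, 2.71%, 5.35%, 1.94% and 3.51% of all genes did so. The reverse held for 0 members at each ZT, and for 1.54%, 2.19%, 2.60%, 4.50%, 1.90% and 3.08% of all genes. Without the livers that went against their label, the count of members without overlap was 45 at ZT6 (8.62% of all genes), 42 at ZT10 (9.21%) and 17 at ZT18 (5.12%). At each of these times at least 1 genotype then had only 3 livers, where a lack of overlap is easier to reach. Over all times, 59 members were higher and none lower without those livers (16.8% of all genes called). Since they were picked by how they differed from their genotype, this larger count does not strengthen the result. With all livers kept, the count without ZT10 was 40 (8.64%). Leaving out the livers numbered 1 in each group, all from males on NC, brought it to 27 (5.92%). Beside these values, 1 of 6 hepatocyte markers was lower and 1 higher. The lower one was Alb, whose share went from a median of 9.05% to 4.77% of counts. Of 3 bile duct markers 1 was higher, their sum going from 13.2 to 27.4 CPM, and summed macrophage markers had medians of 380 and 357 CPM in Hep-Bmal1WT and Hep-Bmal1KO, with 0 of 6 markers passing. Their part in the result was not tested.

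On cdHFD the same comparison called 0 of 79 members by edgeR (9.49% of all genes passed, 4.65% upward and 4.84% downward). By the unadjusted p, 1 member was under 0.05, and DESeq2's Wald test called 0. That member was Rpl3, which reaches into the peptidyl transferase centre: 277 to 477 CPM (median 357) in Hep-Bmal1WT and 314 to 431 (median 391) in Hep-Bmal1KO, a log2 change of 0.10 ± 0.04 with adjusted p = 0.142. The median change over the members was 0.02, against 0.01 over all genes. Hep-Bmal1KO had the higher mean for 68 members at ZT2 but for 2 at ZT22, and for 46 to 61 at the times between. All 4 Hep-Bmal1KO livers lay above all 4 Hep-Bmal1WT livers for 0 members at ZT2 (2.10% of all genes) and for at most 1 at any later time (1.24% to 4.01%).

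**Figure D2:**
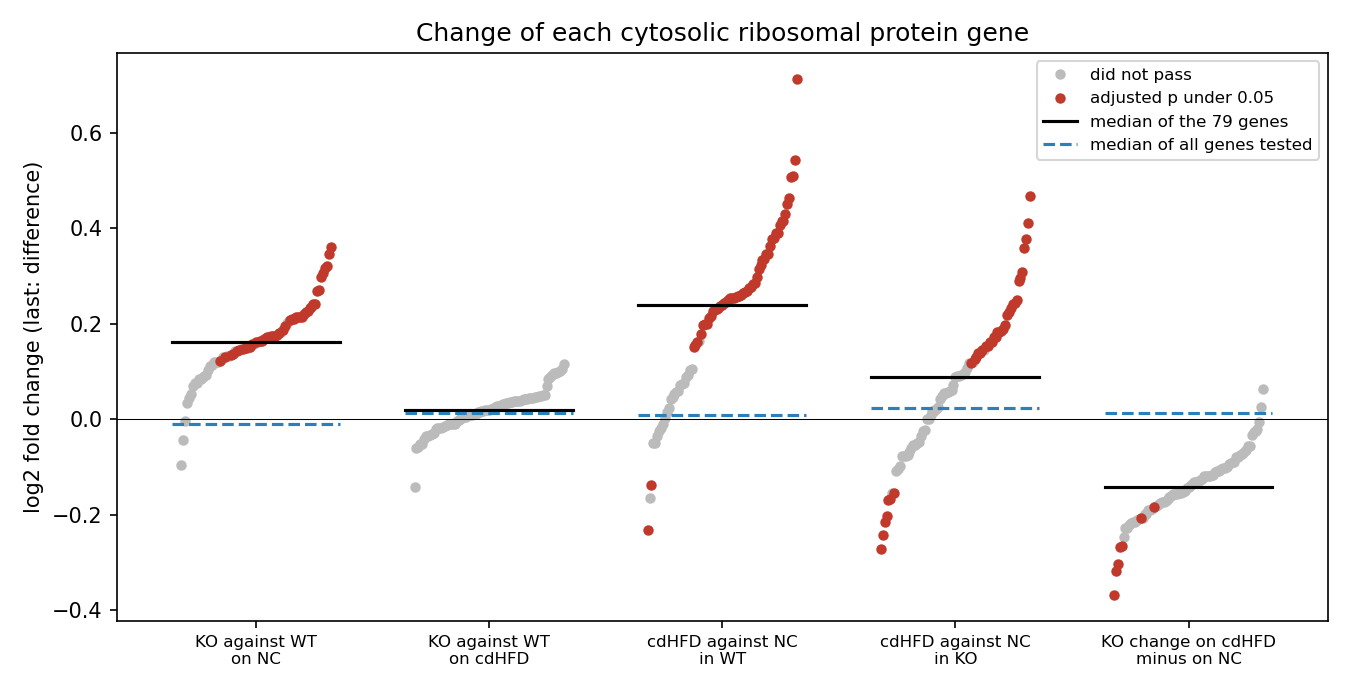
Log2 fold change of each of the 79 genes in the 4 comparisons, ordered by size within each, and the difference between the genotype changes on the 2 diets. Red points passed an adjusted p of 0.05, black lines are the medians of the 79 genes and dashed lines the medians of all genes tested; the genotype change had a median of 0.16 on NC and 0.02 on cdHFD.

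The difference between the genotype changes was tested itself, as genotype by diet over all 96 livers. The change was smaller on cdHFD than on NC for 77 of 79 members, with a median difference of -0.14 on the log2 scale against 0.01 over all genes. Of these, 7 passed an adjusted p of 0.05, each in that direction (2.95% of all genes passed, 1.02% upward and 1.93% downward). Among them were Rpl4 with a difference of -0.30 ± 0.06 (adjusted p = 0.00172), Rpl28 with -0.37 ± 0.09 (adjusted p = 0.0108), Rpl17 with -0.32 ± 0.08 (adjusted p = 0.0116), Rplp1 with -0.27 ± 0.07 (adjusted p = 0.017), Rpl7a with -0.18 ± 0.05 and Rpl9 with -0.27 ± 0.08. Those named are large-subunit genes. Rpl4 shows the form of it: the medians were 887 CPM in Hep-Bmal1WT and 1055 in Hep-Bmal1KO on NC, and 1019.9 and 997 on cdHFD. Its ranges on cdHFD, 719 to 1145 and 751 to 1225, lay almost on each other. Rpl28, another large-subunit gene, ran from 245 to 618 CPM (median 483) and from 423 to 693 (median 583) on NC, and from 368 to 727 (median 531) and from 391 to 658 (median 509) on cdHFD. This count moved with the livers used, as did that of all genes. It was 21 without the livers against their label (5.83% of all genes), 13 with DESeq2 (4.20%), 3 without ZT10 (1.23%), and 0 or 1 when the livers numbered 1 or 2 were left out (0.669% and 0.958%). The livers with these numbers were mostly from males.

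The third question was how the diet changed the members within each genotype. In Hep-Bmal1WT, cdHFD raised 53 members and lowered 2, with a median of 0.24 on the log2 scale against 0.01 over all genes. The diet moved much of the transcriptome, so that 55.4% of all genes passed, 28.2% upward and 27.2% downward. The members of smallest p were Rps12, Rps19, Rps20, Rplp1 and Rpl35. Rps12 went from a median of 653 CPM (556 to 1003) on NC to 1126 (766 to 1403) on cdHFD, a log2 change of 0.71 ± 0.06 (adjusted p = 1.91e-16). Rps19, the gene most often mutated in Diamond-Blackfan anaemia, went from 410 (328 to 517) to 594 (447 to 805). The upper NC livers overlapped the lower cdHFD livers for both, with a log2 change of 0.54 ± 0.05 for Rps19 (adjusted p = 3.57e-13). Rps20 went from 1039 CPM (829 to 1161) to 1382 (1116 to 1635), by 0.43 ± 0.04 (adjusted p = 3.8e-13), and Rplp1 from 1960 (1305 to 2299) to 2512 (1882 to 3707), by 0.46 ± 0.05 (adjusted p = 1.31e-11). Rpl41, which encodes the smallest ribosomal protein, was higher by 0.51 ± 0.07 (adjusted p = 2.35e-09). The lower members were Rps27l, from a median of 577 CPM (486 to 727) to 494 (418 to 624), by -0.23 ± 0.05 (adjusted p = 3.88e-05), and Rps2, which lies at the mRNA entry of the small subunit, by -0.14 ± 0.05 (adjusted p = 0.0147).

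In Hep-Bmal1KO, cdHFD raised 30 members and lowered 7, where 61.6% of all genes passed, 32.2% upward and 29.4% downward. The median change was 0.09, against 0.02 over all genes. In either direction 46.8% of members were called, under the share of all genes. The share called higher was only somewhat above that of all genes, and the share called lower was under it. Rps12 again led, from a median of 834 CPM (560 to 1093) to 1172 (726 to 1553), by 0.47 ± 0.06 (adjusted p = 1.31e-09). Rps20 (0.31 ± 0.05), Rps19 (0.41 ± 0.07), Rpl35 (0.36 ± 0.06) and Rpsa (0.24 ± 0.04) followed. The lower members were Rpl36, Rps2, Rpl11, Rpl7a, Rpl28, Rps27l and Rpl24, by log2 changes of -0.27 to -0.15. Rpl11, which with Rpl5 binds the p53 regulator MDM2, changed by -0.21 ± 0.09 (adjusted p = 0.0268). Both diet comparisons called 30 members higher and 2 lower (24.6% and 23% of all genes), 1 member, Rpl28, was called in opposite directions (0.109%), and 20 were called in neither (30.7%). Rpl28 was higher by 0.20 ± 0.08 in Hep-Bmal1WT and its log2 change was -0.17 ± 0.06 in Hep-Bmal1KO. They have no liver in common, but each shares its livers with the genotype comparisons.

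With total counts alone, the median of all genes moved by 0.50 in both genotypes and every member moved up with it, so that all 79 were called higher in both. A change of scaling moves all genes by nearly the same amount, so positions relative to the median of all genes are nearly fixed. They are given as a description, not as a check of the diet result. The median member lay 0.24 above the median of all genes in Hep-Bmal1WT and 0.07 above it in Hep-Bmal1KO (0.23 and 0.06 under TMM), and each member called lower under TMM lay below it. With DESeq2's size factors, 41 members were higher and 4 lower in Hep-Bmal1KO (61.6% of all genes passed in either direction). Without the livers against their label the split there was 22 to 10 (61.4%). The share of members called was under that of all genes in both. The cell types of the liver moved with the diet: all 6 macrophage markers were higher in both genotypes, their sum going from medians of 380 and 357 CPM to 1830 and 2010. Summed markers of dividing cells went from 3.27 and 3.76 CPM to 30.5 and 26.2, and 5 of 6 hepatocyte markers were lower. The part of these cells in the members' change was not tested.

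**Figure D3:**
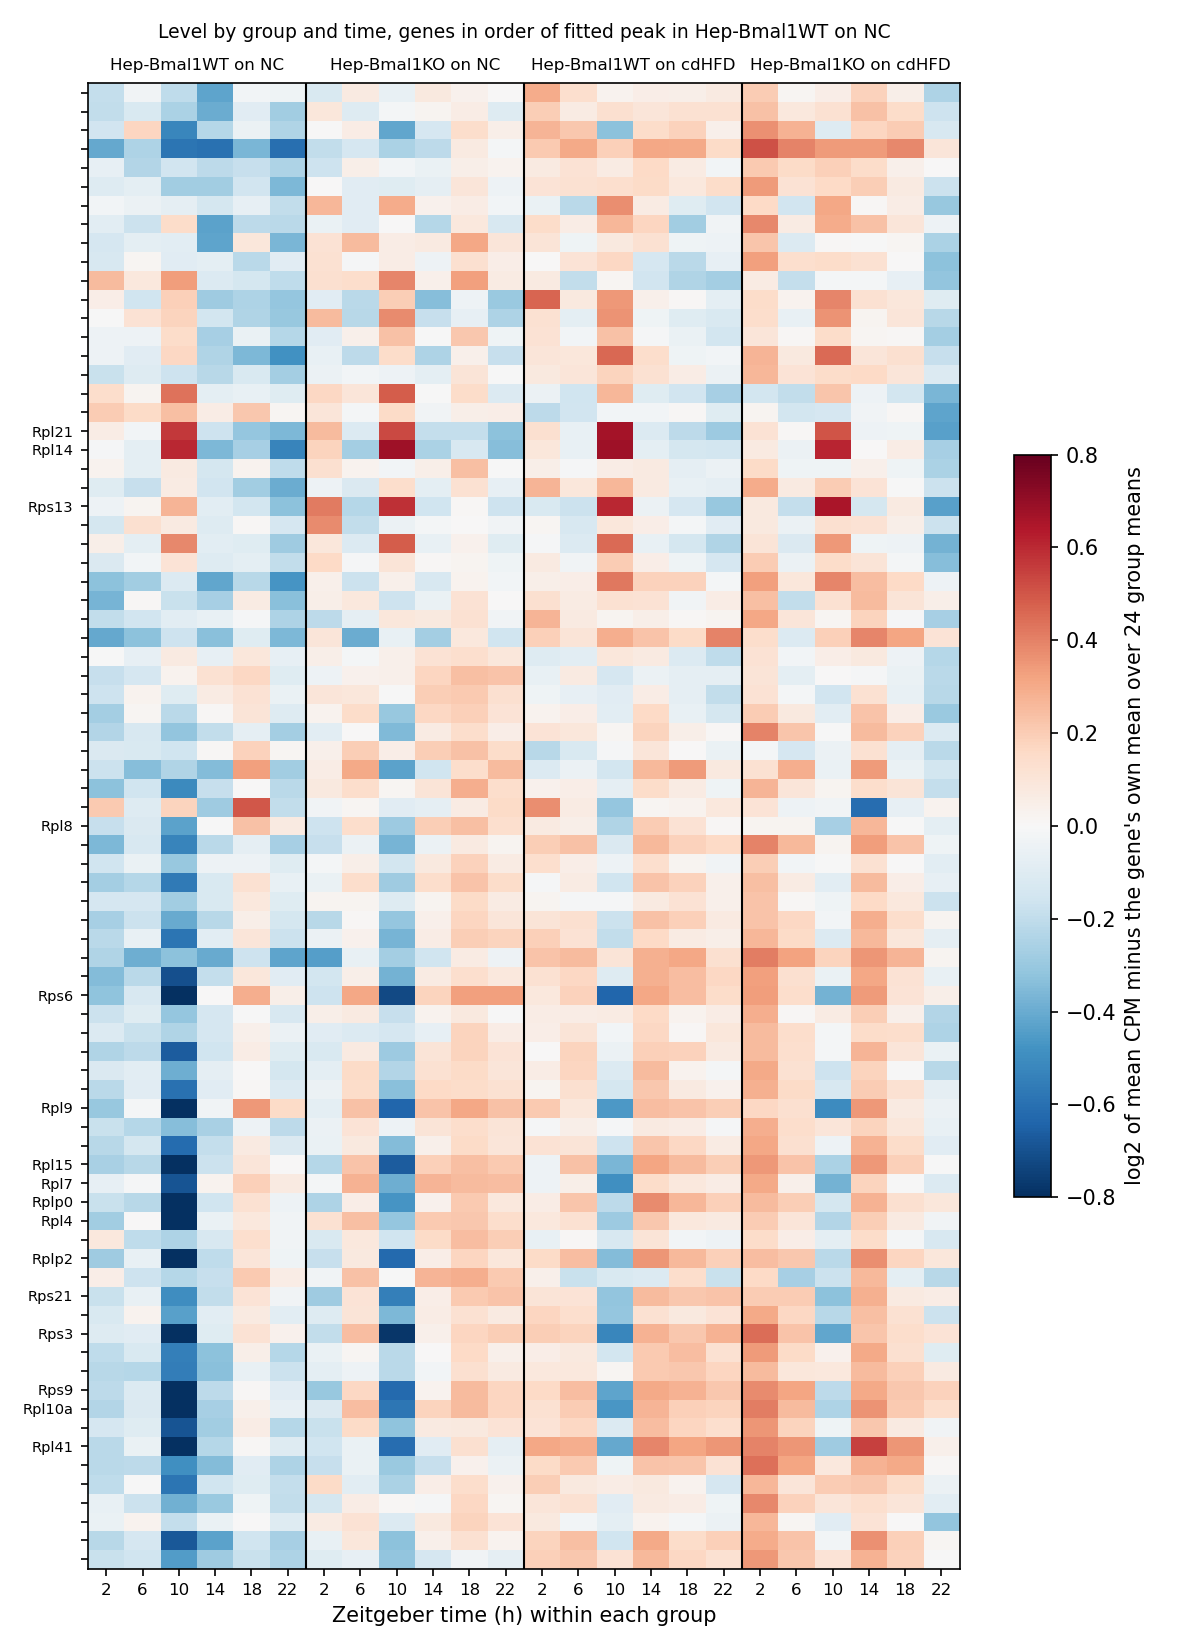
Mean level of each of the 79 genes (rows) in the 4 livers of each group and ZT (columns), as the log2 of its mean CPM minus the gene's own mean over the 24 group means, with values beyond 0.8 drawn at the ends of the colour scale. Rows are ordered by the peak of a cosine fitted in Hep-Bmal1WT on NC; labels mark the 13 genes lower at ZT10 in all 4 groups, which show as blue cells there, and Rpl14, Rpl21 and Rps13, which show as red cells.

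Over the day, ZT10, late in the light phase, stood apart in every group, with some members higher and others lower. This was seen in the data first, and each ZT was then compared with the mean of the other 5 ZTs in each group with the same test. At ZT10, 10 members were higher and 32 lower in Hep-Bmal1WT on NC (11.9% and 11.6% of all genes), 9 and 31 in Hep-Bmal1KO on NC (7.70% and 8.71%), 9 and 23 in Hep-Bmal1WT on cdHFD (9.05% and 10.3%), and 9 and 13 in Hep-Bmal1KO on cdHFD (8.11% and 9.58%). These 9 or 10 higher members make up 11.4% to 12.7% of the 79, and the lower ones 16.5% to 40.5%. The higher share was thus near that of all genes or somewhat above it, and the lower share was above it in each group. At the other times at most 2 members were called in a direction, where at most 2.62% of all genes were, except ZT18 in Hep-Bmal1WT on NC with 18 higher and 0 lower (4.39% and 2.51% of all genes), where ZT10 is among the times compared with.

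**Figure D4:**
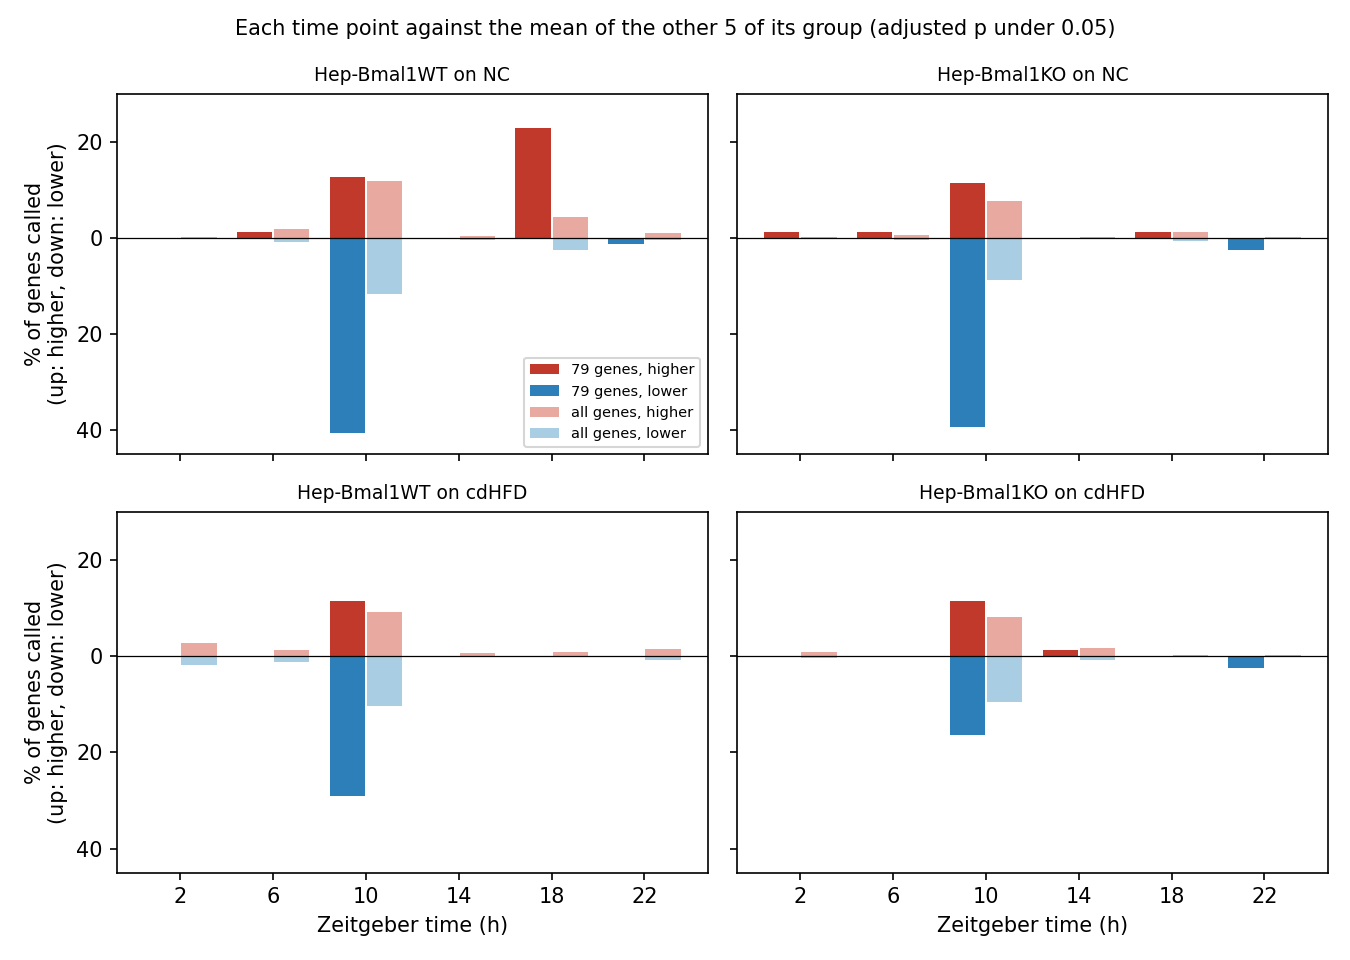
Percent of the 79 genes (saturated bars) and of all 15548 genes tested (pale bars) that were higher (red, up) or lower (blue, down, percent also read downward) at each ZT (h) than the mean of the other 5 ZTs of its group, at an adjusted p under 0.05. At ZT10 the lower bar of the members, for 32, 31, 23 and 13 genes, is longer than that of all genes in each of the 4 groups.

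The same 13 members were lower at ZT10 in all 4 groups (4.31% of all genes were): Rpl4, Rpl7, Rpl8, Rpl9, Rpl10a, Rpl15, Rpl41, Rplp0 and Rplp2 of the large subunit, and Rps3, Rps6, Rps9 and Rps21 of the small subunit. The same 6 were higher in all 4 groups (1.90% of all genes): they included Rpl14 and Rpl21 of the large subunit and Rps2, Rps13 and Rps18 of the small subunit. By sign alone, 45 members were lower in all 4 groups (22.8% of all genes) and 17 higher (24.8%). The share of members higher by sign was under that of all genes. The groups are separate livers but share the collection at ZT10. The 13 genes lie on 10 chromosomes and the 6 on 4, and their genomic lengths overlap, at 1059 to 5814 bases for the 13 and 2684 to 4376 for the 6. Of the 13, 6 have processed copies listed in the table under their name with the ending -ps, against 5 of the 6.

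Rps3, which lies where the mRNA enters the small subunit (chromosome 7, 99477896 to 99483709), was among the genes that dropped. At ZT10 it read 458, 472, 415 and 467 CPM in Hep-Bmal1WT on NC, 538, 513, 369 and 545 in Hep-Bmal1KO on NC, 700, 567, 527 and 549 in Hep-Bmal1WT on cdHFD, and 569, 712, 660 and 586 in Hep-Bmal1KO on cdHFD. The 20 livers of the other times ran from 590 to 996, 673 to 1056, 730 to 1186 and 661 to 1554 CPM. The ZT10 livers lay below all others in the first 3 groups and overlapped them in Hep-Bmal1KO on cdHFD. The log2 differences were -0.87 ± 0.11, -0.87 ± 0.10, -0.75 ± 0.11 and -0.64 ± 0.14 (adjusted p = 1.83e-07, 8.96e-08, 1.78e-06 and 0.00127).

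Rps6 (chromosome 4, 86854099 to 86857367) read 77, 92.7, 82 and 82 CPM at ZT10 in Hep-Bmal1WT on NC, below the 97.4 to 227 of the other times. It read 131, 94.1, 75.4 and 129 in Hep-Bmal1KO on NC, below 144 to 264, and its ranges overlapped on cdHFD. Its log2 differences were -1.06 ± 0.12, -0.91 ± 0.12, -0.83 ± 0.12 and -0.57 ± 0.13 in the 4 groups. Rplp0, the stalk protein that carries the other P proteins and is often taken as a reference gene (chromosome 5, 115559467 to 115563729), read 478, 477, 418 and 445 CPM at ZT10 in Hep-Bmal1WT on NC, where the other times ran from 566 to 1004. It differed by -0.79 ± 0.11, -0.50 ± 0.10, -0.43 ± 0.10 and -0.33 ± 0.11, and on total counts the difference in Hep-Bmal1KO on cdHFD was -0.20 (adjusted p = 0.13). Rpl9, a large-subunit gene, had the largest drop of the members in Hep-Bmal1WT on NC, -1.15 ± 0.12, and -0.82 ± 0.11, -0.66 ± 0.11 and -0.64 ± 0.12 in the other groups.

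Rpl21 (chromosome 5, 146832890 to 146837032), of the large subunit, moved the opposite way. It read 596, 550, 576 and 580 CPM at ZT10 in Hep-Bmal1WT on NC, 571, 592, 580 and 505 in Hep-Bmal1KO on NC, 484, 648, 620 and 718 in Hep-Bmal1WT on cdHFD, and 744, 442, 479 and 540 in Hep-Bmal1KO on cdHFD. The other times had medians of 328, 350, 340 and 384 CPM, and single livers of 3 groups reached into the ZT10 range. Its log2 differences were 0.72 ± 0.11, 0.64 ± 0.08, 0.77 ± 0.14 and 0.58 ± 0.10. Rpl14 (chromosome 9, 120571517 to 120574653), also of the large subunit, read 391, 325, 314 and 337 CPM at ZT10 in Hep-Bmal1WT on NC against a median of 181 at the other times, and 367, 391, 356 and 326 in Hep-Bmal1KO on NC against 193. It was higher by 0.85 ± 0.12, 0.84 ± 0.08, 0.74 ± 0.14 and 0.65 ± 0.10. Rps13, of the small subunit, was higher by 0.38 ± 0.12, 0.61 ± 0.09, 0.76 ± 0.11 and 0.77 ± 0.10. Its copies ending in -ps held 25.3% as many counts as the gene itself, so its level is less certain than that of Rpl21 or Rpl14.

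**Figure D5:**
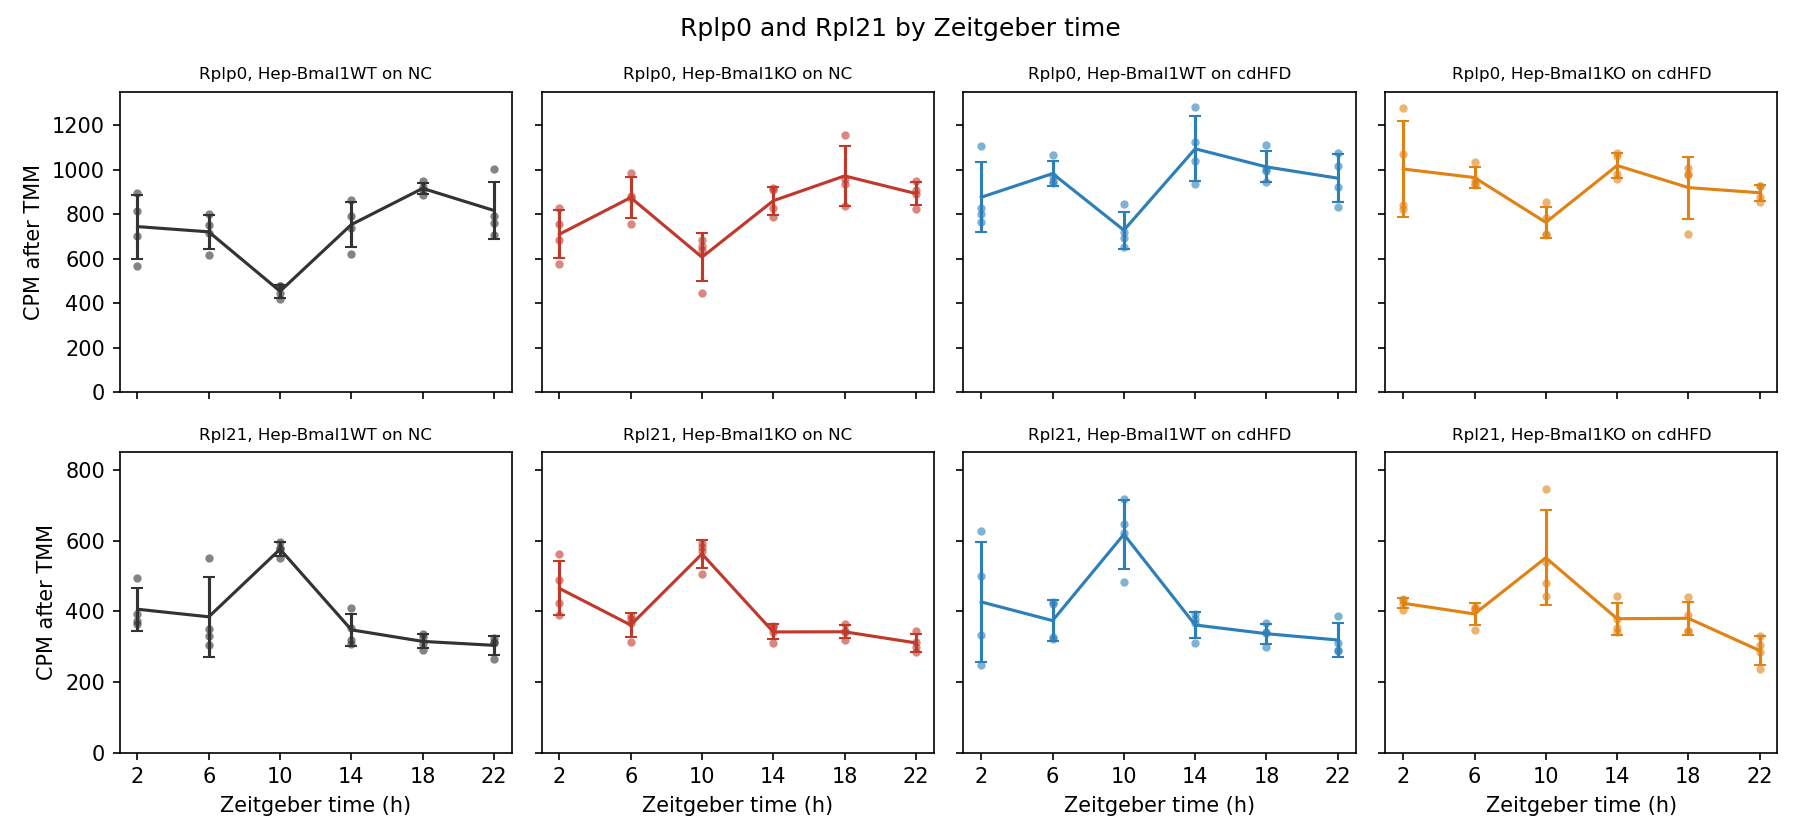
Levels of Rplp0 (top) and Rpl21 (bottom) in CPM after TMM against Zeitgeber time (h) in the 4 groups. Points are single livers, lines join means of 4 and bars are SDs; at ZT10 Rplp0 had its lowest mean and Rpl21 its highest in every group.

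Other values moved with ZT10. The share of reads that aligned outside annotated genes was highest there in every group, with medians of 10.5% in Hep-Bmal1WT on NC and 9.33%, 9.32% and 9.33% in the others, against 6.63% to 8.75% at other times. The share of mitochondrial counts was highest at ZT10 in 3 groups (8.80%, 7.90% and 7.81%), and in Hep-Bmal1KO on cdHFD it was 6.70% at ZT10 and 7.89% at ZT2. Their part in the result was not tested. ZT14 livers shared the plate columns of ZT10, and the part of plate column in the result was not tested either. Without the livers against their label the ZT10 counts were 13 higher and 32 lower (12% and 11.8% of all genes), 9 and 25 (4.03% and 5.71%), 7 and 14 (7.61% and 8.17%), and 9 and 13 (8.16% and 9.62%). On total counts the balance turned over in Hep-Bmal1KO on cdHFD, with 14 higher and 10 lower (13.7% and 5.90% of all genes), where the median of the members went from -0.09 to 0.04 and that of all genes from 0.03 to 0.15.

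A cosine of 24 h, fitted at an unadjusted p under 0.01, called 19 members in Hep-Bmal1WT on NC (19% of all genes), 2 in Hep-Bmal1KO on NC (9.01%), 3 in Hep-Bmal1WT on cdHFD (16%) and 4 in Hep-Bmal1KO on cdHFD (8.25%). The share of members, 24.1% in the first group and 2.53%, 3.80% and 5.06% in the others, was near that of all genes or under it. At an adjusted p under 0.05 (edgeR) the counts were 19, 1, 3 and 1 (18.7%, 4.33%, 14.4% and 3.66% of all genes). The median amplitude over the members was 0.13, 0.12, 0.09 and 0.08 on the log2 scale, and 0.30, 0.24, 0.23 and 0.19 over all genes. A fitted amplitude is never negative and grows with counting noise, and all genes include many with few counts. Genes of like abundance were not compared, so these medians do not show weaker rhythms in the members. In Hep-Bmal1WT on NC, 13 of the called members peaked between 19.4 and 21.7 h, in the dark phase, and 6 between 7.57 and 9.18 h, late in the light phase. By edgeR over 24 livers, Rplp0 (amplitude 0.34, peak at 20.8 h, adjusted p = 0.00636) and Rps6 (0.40, 20 h, adjusted p = 0.0114) were among the first set, and Rpl21 (0.37, 8.34 h, adjusted p = 0.00256), Rpl14 (0.40, 8.50 h, adjusted p = 0.00492) and Rps13 (0.23, 8.99 h, adjusted p = 0.0402) among the second. Rpl21 was called in all 4 groups, with peaks at 8.34, 7.68, 8.61 and 9.20 h, though in Hep-Bmal1WT on cdHFD not without the livers against their label.

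These calls depended on the times included. Without ZT10 the cosine called 1 member in Hep-Bmal1WT on NC (Rps6, amplitude 0.22, edgeR adjusted p = 0.0945), 0 in Hep-Bmal1KO on NC and in Hep-Bmal1WT on cdHFD, and 1 in Hep-Bmal1KO on cdHFD (Rpl13a, amplitude 0.19, adjusted p = 0.152), while 9.84%, 6.20%, 11.9% and 6.35% of all genes were still called. These 2 were named after their values were seen. Leaving out another time moved the count too: in Hep-Bmal1WT on NC it was 5 without ZT18 (12.5% of all genes) and 38 without ZT6 (22.3%), and in Hep-Bmal1KO on NC it was 35 without ZT6 (14.2%). Fitting ZT as a factor, with no assumed shape, called 33, 38, 19 and 25 members (21.0%, 15.7%, 20.3% and 15.7% of all genes). So the lower cosine count in Hep-Bmal1KO than in Hep-Bmal1WT on NC did not carry over to the test without a shape. A difference in rhythm between genotypes or diets, tested directly, was called for 0 members in each of the 4 comparisons by edgeR, with 1, 0, 3 and 1 members at an unadjusted p under 0.05 for genotype on NC, genotype on cdHFD, diet in Hep-Bmal1WT and diet in Hep-Bmal1KO (0.251%, 0.405%, 6% and 0.888% of all genes were called). The count was also 0 in each with DESeq2's size factors, and DESeq2's own test was not run for these 4.

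The summed level followed the larger of the ZT10 sets and had its lowest mean at ZT10 in 3 groups. In Hep-Bmal1WT on NC it ran from a median of 37712 CPM (34851 to 38953) at ZT10 to 48721 (46808 to 49435) at ZT18, with no overlap between these times. In Hep-Bmal1KO on NC the medians were 44614 (35961 to 47093) and 53864 (49094 to 57244), also without overlap. On cdHFD the spread at single times was wider, with 43347 to 63477 CPM at ZT2 in Hep-Bmal1WT and 49819 to 67696 in Hep-Bmal1KO. The time at which most members had their highest mean was ZT18 on NC (51 and 49 members), ZT14 in Hep-Bmal1WT on cdHFD (39) and ZT2 in Hep-Bmal1KO on cdHFD (47). The livers of Hep-Bmal1WT on cdHFD at ZT14 were mostly from males, so time and sex are partly mixed there. In Hep-Bmal1KO on cdHFD 55 members had their lowest mean at ZT22, where 1 of the 4 livers lay far below the rest.

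Genes related to the members were taken from lists by role, chosen with earlier results of these data known. Of 19 other mRNAs known to begin with a TOP tract, 14 were higher and none lower in Hep-Bmal1KO on NC (median 0.18), among them Eef1a1, the factor that delivers aminoacyl-tRNA, by 0.29 ± 0.05 (adjusted p = 9.29e-05), and Eef2, the translocation factor, by 0.14 ± 0.04 (adjusted p = 0.0257). On cdHFD 1 of the 19 was higher. Of all genes, 6.98% were higher and 5.19% lower on NC, and 4.65% and 4.84% on cdHFD, which also holds for the lists that follow. Rps3a1, a small-subunit gene whose symbol falls outside the name rule and which was added after the values were seen, was higher on NC by 0.21 ± 0.06 (adjusted p = 0.00558). Of 3 ribosomal protein genes named otherwise none passed, with log2 changes of 0.09 for Fau and 0.09 for Rack1. Among 16 genes of ribosome assembly, none passed on NC (median -0.05) and 1 was higher on cdHFD. Among 14 regulators of the synthesis and translation of these mRNAs, 4 were lower on NC and 1 on cdHFD. On the diet, 8 of the 19 TOP mRNAs were higher and 1 lower in Hep-Bmal1WT (28.2% and 27.2% of all genes), and 6 and 6 in Hep-Bmal1KO (32.2% and 29.4%), the latter near the shares of all genes. Of the regulators, 4 were higher and 9 lower in Hep-Bmal1WT, and 5 and 8 in Hep-Bmal1KO. Among them Larp1 was lower by 0.38 ± 0.07 in Hep-Bmal1WT and by 0.51 ± 0.06 in Hep-Bmal1KO on the log2 scale.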

How the data were processed

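BRB-seq reads were aligned by the authors to mm10 with STAR and counted per gene (HTSeq and featureCounts are named, with versions not given in the sources used here), and raw counts were deposited without normalization. Whether reads of 1 molecule were collapsed is not stated. The rows for unassigned reads took 27.6% of reads on average (22.6 to 39.9%) and stayed out of totals, and the rows for ambiguous and multiply aligned reads were 0 in every library. Members were chosen by symbol with at least 1000 counts in sum, and members and lists were chosen with earlier results of these data known.

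Genes with at least 100 counts in sum (15548) were tested with edgeR 4.0.16 in R 4.3.3 (TMM, quasi-likelihood, Benjamini-Hochberg, adjusted p under 0.05): genotype within diet and diet within genotype with ZT as a factor, genotype by diet over 96 libraries, and cosine and sine terms of 24 h per group at p under 0.01, the threshold of the study, which used other algorithms. Levels are CPM after TMM. Genes named were drawn from the 5 members of highest mean, the 5 of smallest p called in each direction of each level comparison (the 3 of smallest p where fewer than 3 were called), the 5 of smallest p for each time of day, the stalk genes, Rps6 and Rpsa, paralogues ending in l, and members nearest the sum of 1000. The other genes named, those for ZT10 and those listed in full among the called, were chosen after their values were seen. Alternatives were DESeq2 1.42.0, other scalings and filters, sex as a covariate, and libraries left out. The tests of single times, of sex, and without ZT10 or another time were added after seeing the data. Replicate numbers follow accession order, and livers, from separate mice, are the replicates. Intervals of depth cover counting error only. The scripts were tested on simulated data. Positions are from RefSeq GRCm38.p6, where all 79 members matched, 12 overlap another coding gene and reads of near-identical copies may be split. Copies ending in -ps held 0.41% of member counts, but 25.3% beside Rps13 and 12.3% beside Rps15a. Some genes are not reported here by name, though counts include them.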

Additional observations from a re-analysis of the deposited data

Results flagged for a closer look

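Among 144 sets of 4 livers of 1 group and time examined for a liver far from its 3 fellows, 6 were found, and chance gives about 1 in 20 sets. The summed level of the members was 35014 CPM in Hep-Bmal1KO on cdHFD at ZT22, replicate 2, where the others ran from 48019 to 49627. It was 37621 CPM in Hep-Bmal1WT on NC at ZT14, replicate 1, where the others ran from 43697 to 44542. Rplp0 read 712 CPM in Hep-Bmal1KO on cdHFD at ZT18, replicate 4, against 978 to 1009 in the others. Rpl21 read 348 CPM in Hep-Bmal1KO on cdHFD at ZT6, replicate 4, against 402 to 413. Rpl28 read 404 CPM in Hep-Bmal1WT on cdHFD at ZT14, replicate 4, against 600 to 625, and this liver was the only one from a female in that set. Rpl17 read 799 CPM in Hep-Bmal1WT on NC at ZT18, replicate 4, against 1089 to 1139, and this liver is among those that went against their label.

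The genotype change differed between the diets, by the test of genotype by diet, for 7 members. The log2 differences, cdHFD minus NC, included -0.30 for Rpl4, -0.37 for Rpl28, -0.32 for Rpl17, -0.27 for Rplp1, -0.18 for Rpl7a and -0.27 for Rpl9.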

How the results depend on the processing

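Of the counts and summed levels under their alternatives, 197 stayed within 1.5 times of the reported value or within its spread, and 52 moved. With total counts, 3 members were called for genotype on cdHFD (9.97% of all genes), 79 for diet in Hep-Bmal1KO (75.7%), 14 for genotype by diet (3.52%) and 4 for time of day in Hep-Bmal1KO on NC. Genotype by diet called 4 with no filter (1.34% of all genes), 21 without the livers against their label (5.83%), 13 with DESeq2 (4.20%) and 3 without ZT10 (1.23%). Time of day called 33, 38, 19 and 25 members with ZT as a factor, in Hep-Bmal1WT and Hep-Bmal1KO on NC and then on cdHFD (21.0%, 15.7%, 20.3% and 15.7% of all genes), and 1, 0, 0 and 1 without ZT10 (9.84%, 6.20%, 11.9% and 6.35%). Leaving out another time, added after seeing the data, moved it to 38 (without ZT6) and 5 (ZT18) in the first group, 4 (ZT2), 35 (ZT6), 5 (ZT14) and 0 (ZT22) in the second, 7 (ZT2), 18 (ZT6), 10 (ZT14) and 1 (ZT18) in the third, and 10 (ZT2) and 0 (ZT22) in the last. The shares of all genes, in the same order, were 22.3% and 12.5%, then 10.1%, 14.2%, 8.42% and 8.28%, then 14.3%, 17.9%, 16.6% and 11.6%, and 7.05% and 6.38%. Time of day called 1 with sex as a covariate and 1 by adjusted p (4.33% of all genes) in Hep-Bmal1KO on NC, 5, 6 and 7 with DESeq2's size factors, no filter and sex in Hep-Bmal1WT on cdHFD, and 1 by adjusted p (3.66%) in Hep-Bmal1KO on cdHFD. For the scaling, filter and sex alternatives of time of day the share of all genes is not given. ZT10 against the other times called 21 in Hep-Bmal1WT on cdHFD without the livers against their label (7.61% of all genes were higher and 8.17% lower). The summed diet ratios were 1.55 without the 20 abundant genes and 1.16 by TMM scaling in Hep-Bmal1WT, and 1.05 by that scaling in Hep-Bmal1KO. The cause of these moves was not tested, except that leaving livers out leaves fewer to test.

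Leaving out each replicate number in turn gave 27 to 39 members for genotype on NC (5.92% to 10.3% of all genes), 24 to 38 for diet in Hep-Bmal1KO (55.5% to 57.9%), 0 to 6 for genotype by diet (0.669% to 2.19%), 7 to 16 for time of day in Hep-Bmal1WT on NC, 0 to 2 in Hep-Bmal1KO on NC, 0 to 3 in Hep-Bmal1WT on cdHFD, 0 to 6 in Hep-Bmal1KO on cdHFD, and for ZT10 20 to 34 in Hep-Bmal1WT on cdHFD and 11 to 26 in Hep-Bmal1KO on cdHFD. For the time of day and ZT10 ranges the share of all genes is not given. On total counts the diet changes of Rps27l (0.26) and Rps2 (0.36) in Hep-Bmal1WT and of Rps2 (0.24), Rpl36 (0.21), Rpl7a (0.28), Rpl24 (0.33) and Rps27l (0.31) in Hep-Bmal1KO were positive, as the scaling moved the median of all genes up by 0.50, and these genes stayed below that median. No paired analysis was possible because replicate numbers were given in accession order and mark no shared animal, litter or day. They do follow sex: replicates 1 and 2 were male and replicate 4 female, except on cdHFD at ZT2, where this was reversed. Leaving out a replicate number thus also changed the balance of the sexes. Depth limits Rpl6l and Rps4l most, the members with the fewest counts.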

Other observations

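The 78 mitochondrial ribosomal protein genes, which serve the separate ribosome of that organelle, were mostly called lower on the diet. On cdHFD 7 were higher and 43 lower in Hep-Bmal1WT (median -0.17 on the log2 scale), where 28.2% and 27.2% of all genes were, and 3 higher and 61 lower in Hep-Bmal1KO (median -0.29), where 32.2% and 29.4% were. No test compared them with the cytosolic members. In Hep-Bmal1KO against Hep-Bmal1WT on NC, 14 were higher and 2 lower (median 0.10), where 6.98% and 5.19% of all genes were, and on cdHFD 2 were lower (4.84% of all genes). Of the 16 genes of ribosome assembly, 4 were higher and 2 lower on the diet in Hep-Bmal1WT, and 9 and 1 in Hep-Bmal1KO.

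Sex was tested within each diet after the data had been seen, beside genotype and ZT. On cdHFD 12 members were higher in males and 0 lower, where 2.50% and 3.11% of all genes were, and on NC 2 were higher and 0 lower (8.06% and 9.94%). The median member difference was 0.11 on cdHFD and 0.05 on NC on the log2 scale, against 0.01 and -0.02 over all genes. On cdHFD the 12 included all 3 stalk genes, Rplp0 (0.18 ± 0.05, adjusted p = 0.0112), Rplp1 (0.18 ± 0.05, adjusted p = 0.014) and Rplp2 (0.15 ± 0.05, adjusted p = 0.0397), and Rpl13a (0.30 ± 0.06, adjusted p = 0.000801). On NC they were Rpl12 (0.22 ± 0.05, adjusted p = 0.00165) and Rpl27 (0.12 ± 0.04, adjusted p = 0.0222). A difference between the diets in the effect of sex was not tested.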
